A study of Mus musculus with 8 samples.

Results

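The pentose phosphate pathway was examined through the genes of 8 enzymes, G6pdx, Pgls, Pgd, H6pd, Rpia, Rpe, Tkt and Taldo1, which were picked by gene symbol from the 34299 genes of the count table. All 8 were found, and all 8 passed the filter on low counts in every comparison. The samples were whole brains of mice: 3 libraries from wild-type (WT) fetuses at gestation day 15, 3 from fetuses of the same day that carry a Cav1 knockout (KO), and 2 from Cav1 KO brains at week 70. Cav1 encodes caveolin 1, the main coat protein of small membrane pits called caveolae. No WT library at week 70 was analysed here, and the strain, sex, litter and kind of knockout allele are not given in the sources used here. The libraries were made from polyadenylated RNA, and reads were counted per gene. The day 15 samples are labelled as biological replicates; for week 70 the labels do not say how the pair of samples relate, so that p-values there measure only the spread between these samples.

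As background, the pathway splits from glycolysis at glucose 6-phosphate. Its oxidative branch makes NADPH, the reductant used for lipid synthesis and for recycling glutathione, together with ribulose 5-phosphate. Its non-oxidative branch turns that sugar into ribose 5-phosphate for nucleotides and shuttles surplus carbon back to glycolysis. In the brain it is known for supplying NADPH to neurons and astrocytes under oxidative load and ribose to dividing progenitors.

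Levels are given as normalised CPM, read counts scaled to the library's total and to its TMM factor. Total counts ranged from 19414747 to 20833397 in WT day 15, from 14110031 to 15245283 in KO day 15, and from 18924304 to 20203233 in KO week 70. Depth and genotype therefore did not overlap at day 15, no batch is recorded, and batch and genotype cannot be told apart. Cav1 had 218 to 367 counts in WT day 15 and at most 5 in any KO library. Fold changes at day 15 also moved with base composition: Spearman's rho of the log2 fold change with transcript GC content was -0.477 and with transcript length -0.367, taken over 19147 genes that do not count as replicates. Fold changes of the members and of the list genes named below are therefore given with their value in a fit corrected for length and GC. Markers of other cells differed as well, and their part in the results was not tested. The summed level of 5 endothelial markers was 159 to 216 CPM in WT day 15, 45 to 57.8 in KO day 15 and 269 to 298 at week 70. For 9 erythroid genes the sums were 1030 to 1310, 3590 to 4420 and 491 to 778 CPM, and for 5 oligodendrocyte markers 85.8 to 109, 76.5 to 83.3 and 12700 to 12800 CPM. The 5 neuronal markers summed to 3480 to 3770, 2490 to 2530 and 6070 to 6290 CPM, so that neuronal transcripts were present in all libraries of this labelled whole brain. The 5 progenitor markers summed to 599 to 681 CPM in WT day 15, 222 to 246 in KO day 15 and 130 to 131 at week 70. WT replicate 1 stood apart, with 3850 CPM for 5 fibroblast and meningeal markers against 200 and 339 in the other WT libraries, 533 against 99.5 and 88.7 for cartilage, and 39.3 against 3.39 and 3.67 for skeletal muscle. Reads on processed pseudogenes made up 3.55 to 3.69% in WT day 15, 6.15 to 6.49% in KO day 15 and 0.306% at week 70, and mitochondrial mRNA 1.21 to 1.29%, 3.05 to 3.63% and 3.54 to 4.41%. These shares split the fetal libraries by genotype, and the pseudogene share also set week 70 apart from every fetal library. With no batch recorded, batch and age cannot be told apart either. The part of these shares in the results, by genotype or by age, was not tested. In these bulk samples, fewer cells of a type and less RNA per cell cannot be told apart.

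The promoters of the members are shown because the genes did not move together, and a reader may want to set their sequences side by side. The stretches come from RefSeq on GRCm38.p6, which held a window for all 8 genes, and each is written 5′ to 3′ on the strand of its gene. Shown are the 250 bases before the start of Taldo1 (chr7:141391910-141392159, plus strand) and of Rpe (chr1:66700581-66700830, plus strand), 184 bases upstream of the annotated exon of Pgd (chr4:149166772-149166955, minus strand), and stretches of 30 bases in Tkt (chr14:30549101-30549130, plus strand) and G6pdx (chrX:74428918-74428947, minus strand). Capitals mark matches, on either strand, to the GC box GGGCGG, the CCAAT box CCAAT, or the antioxidant response element core TGACNNNGC; matches outside the stretches shown are counted below but not printed.
Tkt: gcgccCCGCCCcacctCCGCCCCGCCCccc
Taldo1: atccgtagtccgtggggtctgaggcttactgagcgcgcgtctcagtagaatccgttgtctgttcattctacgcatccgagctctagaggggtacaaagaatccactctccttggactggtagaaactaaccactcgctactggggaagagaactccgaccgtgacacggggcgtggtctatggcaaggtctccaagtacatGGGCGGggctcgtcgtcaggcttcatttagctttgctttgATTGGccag
Rpe: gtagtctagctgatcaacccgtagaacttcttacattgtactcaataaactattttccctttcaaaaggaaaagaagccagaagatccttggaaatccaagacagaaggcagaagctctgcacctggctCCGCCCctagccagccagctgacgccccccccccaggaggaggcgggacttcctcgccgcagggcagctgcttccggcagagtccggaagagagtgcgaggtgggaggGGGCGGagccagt
Pgd: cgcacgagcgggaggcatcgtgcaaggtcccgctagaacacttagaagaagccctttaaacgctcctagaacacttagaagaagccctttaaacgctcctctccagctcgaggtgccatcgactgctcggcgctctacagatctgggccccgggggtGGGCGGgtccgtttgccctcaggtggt
G6pdx: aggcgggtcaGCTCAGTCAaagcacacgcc
RefSeq and GENCODE place some starts differently. The RefSeq windows of Tkt, G6pdx and H6pd lie inside the GENCODE gene, and those of Rpia and Pgls overlap it in part. Of Pgd, the window used for the stretch shown overlaps the gene in part, and a further window lies inside it. The Tkt and G6pdx stretches shown overlap an annotated exon. Within 250 bases before a RefSeq start, 7 of the 8 genes held at least 1 GC box, a motif present in 32.7% of 32851 promoter windows of the same length. Members are counted here by gene and the background by window. The 8 genes had 9 windows, and the further window of Pgd held none of the motifs searched. Tkt held 3, of which the last pair overlap by a base. The CCAAT box was found in 3 of the 8 genes (33.8% of all windows), the antioxidant response element core in G6pdx alone (10.2%), and the sterol element TCACNCCAC (1.05%) and the E-box CACGTG (6.02%) in none. These are matches of letters and not sites of binding.

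The series asks what Cav1 does for the metabolism of the fetal brain. Between KO and WT fetal brain, 5 of the 8 enzyme genes were lower in KO, 1 was higher and 2 did not pass the test. Tkt and H6pd fell most, to 36.1% and 34.9% of the WT level in edgeR. Pgd and G6pdx were at 56.1% and 58.4%, and Taldo1 at 89.4%. Rpe was the member that rose, to 166%. Over all 19147 genes tested, 62.6% were called, 30.1% higher and 32.5% lower, so that a count of 6 called in 8 members lies near that background. CPM did not overlap between the genotypes for 6 of 8 members, 1 above and 5 below, and for 68.4% of all genes, 32.1% above and 36.3% below. The median log2 fold change of the members was -0.47, against 0.029 for all genes. With upper-quartile scaling, which raised the median of all genes by 0.17 and the share of calls that were higher from 48.1% to 60.8%, 2 members were called higher and 4 lower. With length and GC corrected the call of Rpe ended and Pgls passed as higher, again 1 higher and 5 lower, with a median of -0.36. Without WT replicate 1 the same 6 members were called.

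**Figure D1:**
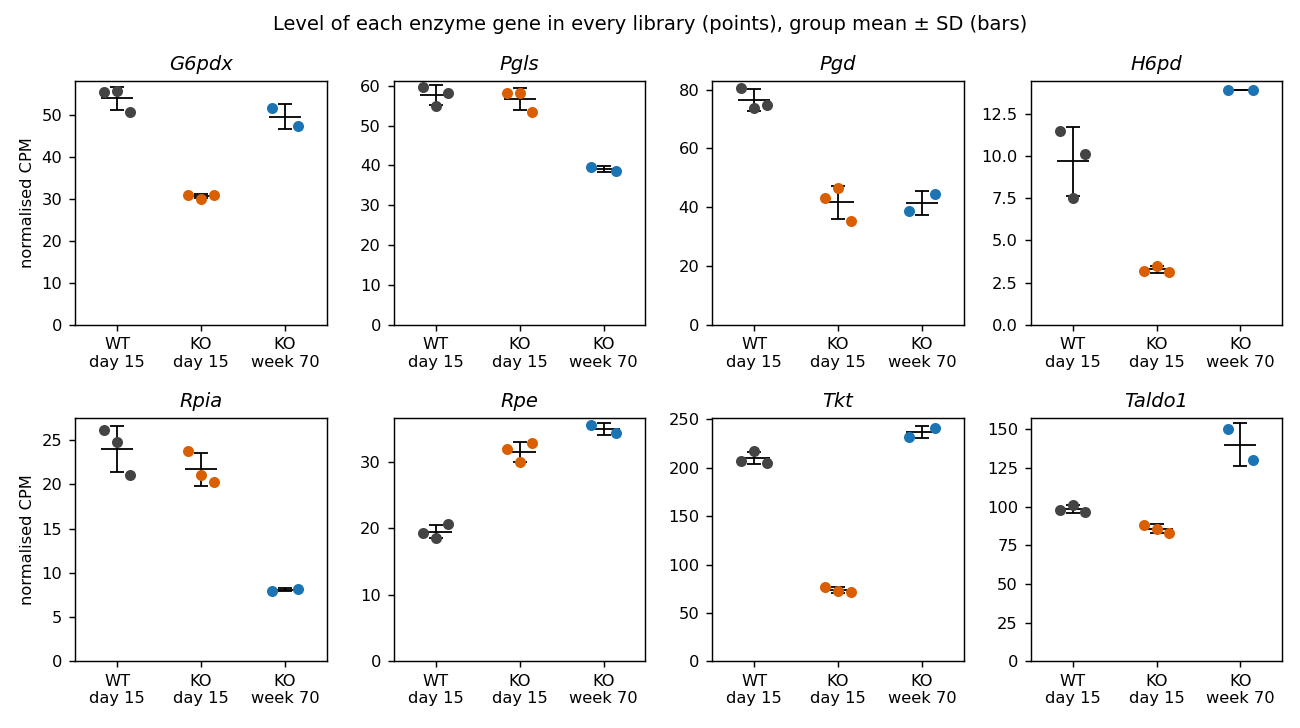
Normalised CPM of each of the 8 enzyme genes (y axis, from 0) in every library, by group (x axis: WT day 15, KO day 15, KO week 70). Points are libraries and bars are the group mean ± SD (n = 3, 3 and 2). Tkt, G6pdx and H6pd are lowest in KO day 15, whereas Rpia and Pgls are lowest at week 70.

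G6pdx (ENSMUSG00000031400, chromosome X, 74409483 to 74429194 on GRCm38) encodes glucose-6-phosphate dehydrogenase, the rate-limiting entry step of the oxidative branch. Its normalised CPM was 55.6, 55.7 and 50.7 in the WT day 15 libraries and 31, 30.1 and 30.9 in KO day 15. At week 70 it was 51.7 and 47.4 CPM. The KO fetuses lay below every other library, while week 70 and WT overlapped. In edgeR its day 15 log2 change came to -0.78 (SE 0.0662, adjusted p 2.84e-06), and -0.53 with length and GC corrected. By age within the KO it rose by 0.59 (edgeR SE 0.0929, adjusted p 0.000164), and 0.26 with correction. Because G6pdx is X-linked, Xist and Y-linked counts are given beside it: the fetal libraries held at least 54531 counts of Xist and at most 4 from 4 Y-linked genes. Week 70 replicate 1 held 7969 and 0 such counts, and replicate 2 held 4 and 2219. By these counts the week 70 pair was unlike in sex, which the labels do not give. Sex was not part of the fits, and its part in the week 70 comparisons was not tested. Exons of G6pdx overlap those of Ikbkg on the opposite strand, and the use of strand in counting is not given in the sources used here. Ikbkg itself had a log2 fold change of -0.20 in edgeR at day 15 (adjusted p 0.0383).

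Pgls (ENSMUSG00000031807, chromosome 8, 71592176 to 71601092) encodes 6-phosphogluconolactonase, which opens the lactone made by G6pdx. Levels were 59.8, 54.9 and 58.3 CPM in WT day 15, 58.1, 58.1 and 53.4 in the fetal KO, and 39.6 and 38.5 at week 70. The fetal genotypes overlapped and both week 70 libraries lay below all 6 fetal ones. In edgeR the day 15 log2 change was 0.01 (SE 0.0603, adjusted p 0.862). With length and GC corrected it was 0.53 (SE 0.0516, adjusted p 1.28e-05 in edgeR), and with upper-quartile scaling alone it was 0.18 (edgeR adjusted p 0.0199), so that the call depended on either choice. The transcript has a GC content of 57.4%, the highest of the 8. By age it fell by 0.63 on the log2 scale (edgeR SE 0.0904, adjusted p 7.92e-05), and by 1.36 with correction. Its exons overlap those of Niban3 on the same strand, which held 112 to 177 counts in the fetal libraries and 22 to 36 at week 70.

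Pgd (ENSMUSG00000028961, chromosome 4, 149149991 to 149166771) encodes 6-phosphogluconate dehydrogenase, the other NADPH-producing step in the cytosol. WT day 15 libraries were at 80.7, 73.9 and 74.7 CPM, KO day 15 at 43.1, 46.6 and 35.4, and week 70 at 38.6 and 44.5. Every KO library, fetal or aged, stood below every WT library, and the KO ages overlapped. The edgeR log2 fold change at day 15 was -0.83 (SE 0.0888, adjusted p 1.47e-05), or -0.68 corrected. By age it was -0.11 (edgeR SE 0.126, adjusted p 0.449), or -0.21 corrected. Between week 70 KO and WT day 15 it was -0.90 (edgeR adjusted p 5.74e-05), or -0.93 corrected, a pair of groups in which age and genotype both differ and cannot be told apart.

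H6pd (ENSMUSG00000028980, chromosome 4, 149979475 to 150009023) encodes the enzyme of the endoplasmic reticulum that joins the first steps of the oxidative branch in 1 protein and keeps NADPH inside that compartment. It had the fewest reads of the 8, with 246, 150 and 201 counts in WT day 15, 53, 63 and 54 in the fetal KO, and 211 and 202 at week 70. In CPM these were 11.5, 7.49 and 10.1, then 3.21, 3.5 and 3.13, then 13.9 in both aged libraries. The 3 groups did not overlap. In edgeR the day 15 log2 change was -1.52 (SE 0.181, adjusted p 3.48e-05), and -0.69 (adjusted p 0.00534 in edgeR) after correction. By age it was 1.98 (edgeR SE 0.185, adjusted p 2.7e-06), and 1.03 after correction. Its transcript is the longest of the 8, at 4745 bases, with 57.2% GC.

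Rpia (ENSMUSG00000053604, chromosome 6, 70765720 to 70792232) encodes ribose 5-phosphate isomerase, which makes the ribose unit of nucleotides. The libraries stood at 26.1, 24.8 and 21.1 CPM in WT day 15, 23.8, 21 and 20.3 in the fetal KO, and 7.98 and 8.2 at week 70. The fetal genotypes overlapped, and both aged libraries were far below them. At day 15 its log2 fold change was -0.10 in edgeR (SE 0.102, adjusted p 0.391), and -0.09 with correction. By age it fell to 34.8% of the fetal KO level, or -1.52 in log2 (SE 0.145 and adjusted p 3.14e-06 in edgeR), and -1.41 with correction.

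Rpe (ENSMUSG00000026005, chromosome 1, 66700831 to 66719805) encodes the epimerase that turns ribulose 5-phosphate toward xylulose 5-phosphate, the donor sugar of transketolase. Its levels were 19.3, 18.6 and 20.6 CPM in WT day 15, 31.9, 29.9 and 32.8 in the fetal KO, and 35.5 and 34.3 at week 70. All KO libraries were above all WT libraries. The edgeR log2 fold change at day 15 was 0.73 (SE 0.082, adjusted p 2.14e-05). With length and GC corrected it was -0.0056 (edgeR adjusted p 0.96), which ended the call; its transcript has 39.2% GC, the lowest of the 8, against a median of 49.2% over the tested genes. By age the log2 fold change was 0.05 (edgeR SE 0.099, adjusted p 0.673) without and 1.16 with correction (adjusted p 1.38e-06 in edgeR). Exons of Rpe overlap those of Kansl1l on the opposite strand. Kansl1l changed by 0.72 at day 15 (edgeR adjusted p 0.000113), close to Rpe, but by -1.96 with age (edgeR adjusted p 5.91e-07).

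Tkt (ENSMUSG00000021957, chromosome 14, 30548359 to 30574720) encodes transketolase, the thiamine-dependent enzyme that moves carbon pairs between sugar phosphates. It was the member with most reads in WT day 15, with 4429, 4342 and 4088 counts, against 1270, 1306 and 1236 in the fetal KO and 3525 and 3498 at week 70. Normalised, the libraries were at 207, 217 and 205 CPM in WT, 76.9, 72.6 and 71.6 in the fetal KO, and 232 and 241 at week 70. The KO fetuses stood far below all other libraries, and the spread within each group was small. The edgeR log2 fold change at day 15 was -1.47 (SE 0.0582, adjusted p 2.34e-08), or -1.04 after correction (adjusted p 4.16e-07 in edgeR). By age it was 1.58 (edgeR SE 0.081, adjusted p 2.22e-08), or 1.03 after correction. Week 70 KO and WT day 15 differed by 0.16 (edgeR SE 0.064, adjusted p 0.0511), which did not pass the test and had the other sign, -0.03, with correction.

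Taldo1 (ENSMUSG00000025503, chromosome 7, 141392199 to 141402968) encodes transaldolase, which completes the non-oxidative branch by moving larger carbon units. Levels were 97.8, 101 and 96.6 CPM in WT day 15, 88.4, 85.8 and 82.9 in the fetal KO, and 150 and 130 at week 70. The 3 groups did not overlap, although the fetal groups lay close together. Its log2 fold change at day 15 was -0.16 (edgeR SE 0.054, adjusted p 0.0233), or -0.20 corrected. The call was lost with upper-quartile scaling (0.01, adjusted p 0.86 in edgeR), with the replicate block (-0.16, edgeR adjusted p 0.0541), and without WT replicate 2, KO replicate 2 or KO replicate 3, with edgeR adjusted p from 0.054 to 0.0815. By age it rose by 0.61 (edgeR SE 0.0895, adjusted p 9.78e-05), and 0.70 with correction. A processed pseudogene of Taldo1, Gm17823, matches 90.5% of its own length at 94.8% identity and held 29 to 47 counts in the fetal libraries and 5 to 8 at week 70, against at least 1431 for Taldo1.

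**Figure D2:**
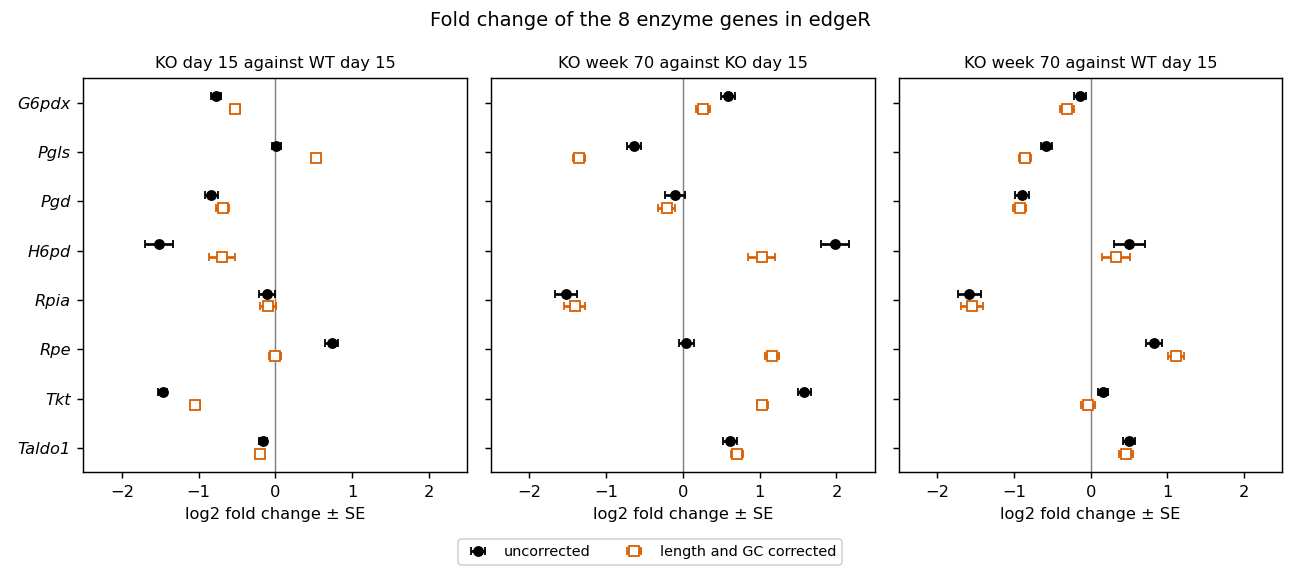
Log2 fold change ± SE in edgeR (x axis) of the 8 enzyme genes (y axis) in 3 comparisons, uncorrected (filled circles) and corrected for transcript length and GC content (open squares). At day 15 Tkt moves from -1.47 to -1.04, Rpe from 0.73 to about 0 and Pgls from 0.01 to 0.53.

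By age within the knockout, 4 of the 8 members were higher at week 70 (H6pd, Tkt, Taldo1 and G6pdx), 2 were lower (Rpia and Pgls), and Pgd and Rpe did not pass the test. H6pd reached 395% and Tkt 300% of the fetal KO level, while Rpia was at 34.8% and Pgls at 64.5%. Among 20000 genes tested in edgeR, 82% were called, 37.6% higher and 44.4% lower, which is above the share of the members (75%). CPM did not overlap for 7 of 8 members, 5 above (Rpe included) and 2 below, and for 87.9% of all genes, 42.3% above and 45.6% below. The members' median log2 fold change was 0.32, against -0.19 for all genes. Upper-quartile scaling moved the median of all genes by -0.25 and called 4 members higher and 3 lower, with Pgd added. With length and GC corrected 5 were higher, now with Rpe, and 2 lower, and the medians were 0.48 for the members and -0.050 for all genes.

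Week 70 KO brains against WT day 15 gave 2 members higher (Rpe and Taldo1), 3 lower (Pgd, Pgls and Rpia) and 3 that did not pass (Tkt, H6pd and G6pdx), where 78.6% of 19465 genes were called in edgeR, 36.7% higher and 41.9% lower. CPM did not overlap for 7 of 8 members, 4 above and 3 below, and for 86.4% of all genes, 40.1% above and 46.3% below. The median of the members was 0.011, against -0.16 for all genes, and with correction -0.17 against -0.036. The log2 fold changes were 0.82 for Rpe (1.11 corrected), 0.49 for Taldo1 (0.46), -0.57 for Pgls (-0.85) and -1.58 for Rpia (-1.54). H6pd was at 0.51 (0.33) and G6pdx at -0.14, neither past the test. With RLE scaling H6pd passed as well, which made 3 higher and 3 lower, and with upper-quartile scaling G6pdx passed as lower, which made 2 and 4. With length and GC corrected G6pdx also passed as lower (-0.31, edgeR adjusted p 0.0188). H6pd passed without WT replicate 1, and Tkt without week 70 replicate 1. The 3 comparisons share libraries in pairs, and their fold changes are not independent of each other.

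The order of the 3 groups in the uncorrected fit differed between members. For Tkt and H6pd, KO day 15 was lowest, and WT day 15 and week 70 did not differ by the test. G6pdx had the same order at the bottom, with week 70 and WT day 15 overlapping. In Taldo1 the order was KO day 15, WT day 15 and week 70, each step past the test, although the day 15 call was lost in some alternatives. Rpe ran from WT day 15 up to KO day 15 and week 70, with the last pair not told apart by the test. The length and GC correction changed this order: the fetal genotypes of Rpe were then not told apart, and week 70 was above KO day 15 by 1.16. Pgd was highest in WT day 15, and its KO ages did not differ by the test. Pgls and Rpia were lowest at week 70, and the fetal genotypes did not differ by the test. After correction Pgls was higher in KO day 15 than in WT day 15, by 0.53. A p that misses the threshold does not show that these levels are equal.

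Levels of different genes were compared per kilobase of the longest annotated transcript. In WT day 15 Taldo1 and Tkt led, at 72.4 ± 1.79 and 65.1 ± 1.9 CPM per kb (SD, n = 3). Pgls, Pgd and G6pdx followed at 21.4, 21 and 20.4, with libraries that overlapped, then Rpe and Rpia at 7.17 and 6.58, and H6pd at 2.04. How close the genes lie to each other depends on the length used. Merged exons gave 7355 bases against 3223 for Tkt, and 2171 against 1362 for Taldo1. For Pgd they gave 6447 against 3644, and for G6pdx 3080 against 2652. The 8 genes summed to 218, 218 and 211 CPM per kb in WT day 15, 153, 149 and 143 in the fetal KO, and 245 and 233 at week 70. The summed level was thus lowest in the KO fetuses, and no group overlapped another.

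Within a library, ratios between members do not depend on library scaling. The size of a ratio or share depends on the transcript length used, whereas the relative change of a ratio between groups does not. Tkt stood to Taldo1 at 0.894, 0.904 and 0.899 in WT day 15, at 0.368, 0.357 and 0.365 in KO day 15, and at 0.654 and 0.781 at week 70. Tkt to Rpe was 8.43 to 9.84 in WT, 1.84 to 2.05 in KO day 15 and 5.53 to 5.94 at week 70. The isomerase to epimerase ratio, Rpia to Rpe, was 0.766 to 1.01, then 0.463 to 0.557, then 0.168 to 0.179. These 3 ratios separated all groups without overlap. G6pdx to Pgd was 0.933 to 1.03 in WT and 0.889 to 1.2 in KO day 15, which overlapped, and 1.47 to 1.84 at week 70. Tkt made up 30.1 ± 0.662% of the summed level in WT day 15 and 15.4 ± 0.264% in the KO fetuses (SD, 3 libraries per group), against 29.4% and 32.1% in the week 70 libraries. The 3 cytosolic oxidative enzymes together took 28.2 to 30% in WT, 28.9 to 30.8% in KO day 15, and 18.3% and 19.1% at week 70. The joint oxidative share therefore overlapped between the fetal genotypes while the summed level of the set differed. The shares of its parts moved in opposite directions. From WT to KO day 15 the mean share of G6pdx went from 9.42% to 7.82% and that of Pgd from 9.71% to 7.71%, whereas Pgls went from 9.93% to 14.2%. The uncorrected level of Pgls itself hardly moved, at 21.4 CPM per kb in WT and 21 in KO day 15. Its share was larger because the sum was smaller. Because these ratios carry any length or GC trend of the libraries, the corrected fold changes above should be set beside them.

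**Figure D3:**
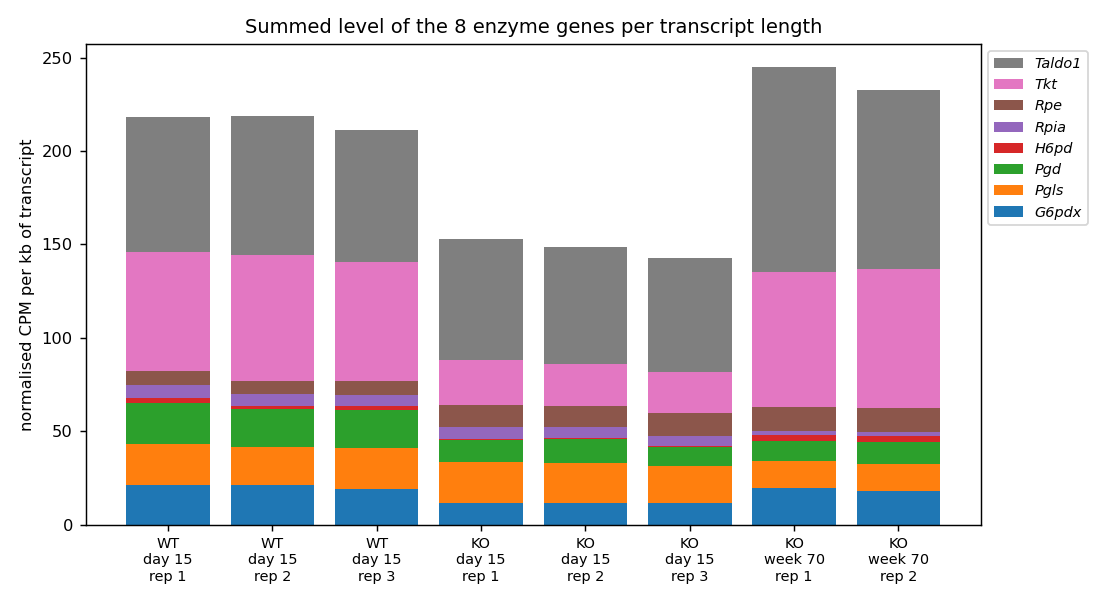
Stacked bars of normalised CPM per kb of transcript (y axis, from 0) for the 8 enzyme genes in each of the 8 libraries (x axis). The KO day 15 bars reach 143 to 153, below the WT bars at 211 to 218 and the week 70 bars at 233 and 245.

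**Figure D4:**
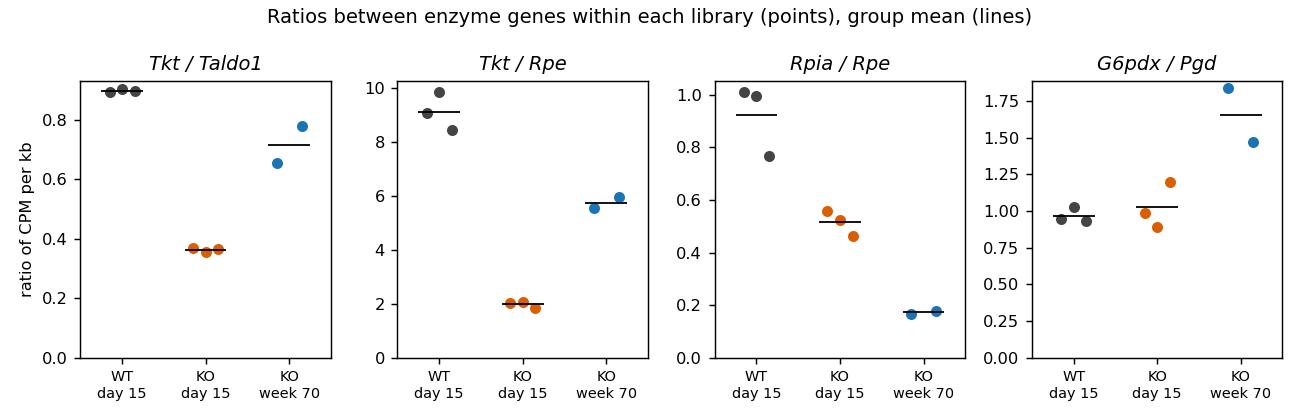
Ratios of CPM per kb between pairs of enzyme genes (y axis, from 0) within each library (points), by group (x axis), with lines at group means. Tkt to Taldo1 is 0.894 to 0.904 in WT day 15 and 0.357 to 0.368 in KO day 15, and G6pdx to Pgd overlaps between the fetal genotypes.

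Genes whose profile over the 8 libraries lay nearest to each member were found by the root mean square difference of centred log2 CPM among 10739 candidates (10740 for H6pd), as a description over libraries that share their groups. Tkt was nearest to Kif1b (0.0622), Tjp1 (0.0776) and Tfip11 (0.0784). For G6pdx they were Jmy (0.0377), Med15 (0.0394) and E2f3 (0.0424), and for H6pd Tspan9 (0.0895), Grn (0.101) and Ece1 (0.109). Taldo1 lay nearest to Psmc4, Map2k7 and Tbc1d20, Pgd to Fbrs, Pdia4 and Pxn, and Pgls to Exosc2, Sf3a3 and Tepsin. Those of Rpia were Prdm10, Dnase1 and H3f3b, and those of Rpe were Fnip1, Ift20 and Dctn6. No member was among the 3 nearest of another; the closest pair of members was Tkt and H6pd, at 0.243.

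The 6 lists of related genes that follow should be read against all tested genes, of which 62.6% were called at day 15 and 82% by age, with medians of 0.029 and -0.19. Close paralogs of the members were scarcely read. G6pd2, a retrogene of G6pdx, had at most 1 count in any library, and Tktl2 2 to 6. Tktl1, a transketolase-like gene, was read 36, 26 and 15 times in WT day 15, 45, 35 and 41 times in KO day 15, and 2 and 5 times in the aged libraries. It was higher in KO day 15 (edgeR log2 fold change 0.95, adjusted p 0.0188), a call lost with length and GC corrected (0.61, edgeR adjusted p 0.114), and lower with age (-3.37, edgeR adjusted p 0.000137, or -2.86 corrected). Of the list of paralogs and side entries, 9 of 12 genes were tested at day 15, with 3 called higher, 1 lower and a median of 0.15. Besides Tktl1, the gluconate kinase Idnk (0.36, or 0.46 corrected) and the sorbitol dehydrogenase Sord (0.77, or 0.82) were higher, and the phosphoglucomutase Pgm1 was lower (-0.71, or -0.67). By age 4 were higher, among them Pgm1 (2.04, or 1.99 corrected) and Sord (1.73, or 1.66), and 4 lower, among them Pgm2 (-0.95, or -0.64), with a median of 0.31.

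At the glucose 6-phosphate branch point, 4 of 8 tested genes were lower in KO day 15 and none was higher, with a median of -0.30. Hk1, the main brain hexokinase, was at 144, 154 and 173 CPM in WT day 15 and 56.3, 45.6 and 44.9 in KO day 15, an edgeR log2 fold change of -1.64 (adjusted p 1.94e-07) that was -0.93 with correction. Hk2 changed by -1.76, or -1.14 corrected. With correction 2 were called higher and 2 lower, and with upper-quartile scaling 2 lower alone. By age 7 of 10 were higher, with a median of 1.52. Hk1 rose by 3.06 on the log2 scale, or 2.20 corrected, and Hsd11b1, which uses the NADPH that H6pd makes, went from 5, 4 and 4 counts in KO day 15 to 502 and 660 at week 70 (log2 fold change 7.15, or 7.94 corrected).

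The list of other NADPH sources also took in the related genes Nadk, Nadk2 and Me2. At day 15 it had 5 of 13 genes lower, Me2 among them, and 1 higher, with a median of 0.028. Aldh1l1, a folate enzyme of astrocytes, changed by -1.54 (-0.95 corrected) and Mthfd1 by -0.92 (-0.57), whereas Mthfd2l was higher by 0.67 (0.22). Upper-quartile scaling turned the split to 5 higher and 3 lower, and the correction to 3 and 5. By age 5 were higher and 6 lower, with a median of -0.13. Aldh1l1 rose by 3.08 (2.38 corrected) and the malic enzyme Me1 by 2.40 (2.72). The cytosolic isocitrate dehydrogenase Idh1 changed by -2.30 (-1.66 corrected) and Aldh1l2 by -3.12 (-3.26).

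In the list of the glutathione and thioredoxin systems, 12 of 28 genes were higher and 8 lower at day 15, with a median of 0.13. Gpx1, a glutathione peroxidase, went from 64.4 ± 0.56 to 123 ± 4.98 CPM (SD, n = 3 each; log2 fold change 0.97, or 1.01 corrected), and the peroxiredoxin Prdx1 was higher by 1.04, or 0.47 with correction. The thioredoxin reductase Txnrd1 (-0.74, or -0.52 corrected) and catalase, Cat (-0.74 in both fits), were lower. Upper-quartile scaling gave 14 higher and 5 lower. By age 18 were higher and 8 lower, with a median of 0.92. Gpx4 rose by 4.91 (4.95 corrected) and Srxn1 by 3.44 (3.02). Gpx1 changed by -3.90 (-3.74 corrected) and Gpx8 by -2.23, a value that was -0.82 with correction.

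Users of ribose 5-phosphate, the genes of purine, pyrimidine and deoxynucleotide synthesis, were lower in 12 and higher in 6 of 28 at day 15, with a median of -0.18. Cad, the first enzyme complex of pyrimidine synthesis, averaged 96.7 ± 5.77 CPM in WT day 15 and 26.9 ± 0.937 CPM in the fetal KO (SD, 3 libraries per group). Its log2 change was -1.81 (adjusted p 1.68e-08 in edgeR), or -0.76 with correction. Gart, of purine synthesis, changed by -1.11, or -0.69 corrected. The salvage enzyme Hprt was higher by 0.84, but it was lower by -0.22 with correction (edgeR adjusted p 0.0294). Rrm2b was higher by 0.57, a call lost with correction (0.13, edgeR adjusted p 0.214). The correction gave 3 higher and 14 lower, and upper-quartile scaling 10 higher and 8 lower. By age 12 were higher and 11 lower, with a median of -0.066. Hprt rose by 2.14 (3.73 corrected) and Adssl1 by 4.71 (4.37). The replication genes Rrm2 and Tyms changed by -4.19 (-3.76 corrected) and -3.73 (-3.66). Upper-quartile scaling gave 12 and 15 by age, and the correction 14 and 9.

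Of 13 regulators of the pathway, 9 were lower in KO day 15 and none was higher, with a median of -0.46. The smallest adjusted p belonged to Nfe2l1, a relative of NRF2, with a log2 fold change of -1.56 (-0.90 corrected), and to Trp53, which encodes p53 (-1.22, or -0.82 corrected). With correction 2 were called higher and 8 lower. By age 5 were higher and 4 lower, with a median of 0.099. Nfe2l1 rose by 3.14 (2.40 corrected) and Srebf1, a regulator of lipid synthesis, by 2.19 (1.17). Bach1, a repressor at antioxidant elements, changed by -1.86 (-1.91 corrected) and Myc by -1.12 (-1.44). With correction 5 regulators were higher and 6 lower by age, and with upper-quartile scaling 5 and 5.

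Week 70 KO against WT day 15 gave these lists in the same order, with age and genotype both different. The counts should be read against all 19465 genes tested in edgeR, of which 78.6% were called, 36.7% higher and 41.9% lower. Of the paralogs and side entries 3 of 9 were higher and 2 lower in edgeR, with Sord at 2.54 (2.44 corrected), Pgm1 at 1.37 (1.28), Pgm2 at -1.04 (-1.03) and Tktl1 at -2.38 (-2.30). At the branch point 7 of 10 were higher, led by the isomerase Gpi1 at 2.67 (2.52 corrected) and the phosphatase G6pc3 at 1.74 (1.53), and Hk2 was lower at -1.56 (-1.55). Other NADPH sources had 4 of 13 higher and 7 lower, among them the malic enzymes Me1 at 2.58 (2.65) and Me3 at 4.20 (4.26), and Idh1 at -2.23 (-2.13) and Aldh1l2 at -3.26 (-3.07). The glutathione and thioredoxin list had 18 of 28 higher and 6 lower, with Gpx4 at 5.61 (5.76), Prdx6 at 2.70 (2.64), Gpx1 at -2.88 (-2.75) and Txnrd1 at -1.51 (-1.58). Ribose users had 12 of 28 higher and 14 lower, with Hprt at 3.03 (3.47), Prps1, which makes PRPP, at 1.44 (1.52), and the ribonucleotide reductase genes Rrm2 at -5.32 (-5.29) and Rrm1 at -2.20 (-1.92). Regulators had 5 of 13 higher and 6 lower, with Nfe2l1 at 1.62 (1.49), the deacetylase Sirt2 at 1.12 (0.92), Bach1 at -2.28 (-2.07) and Myc at -2.14 (-2.32). The medians of the lists were 0.42, 1.14, -0.34, 0.60, -0.26 and -0.12, against -0.16 for all genes.

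**Figure D5:**
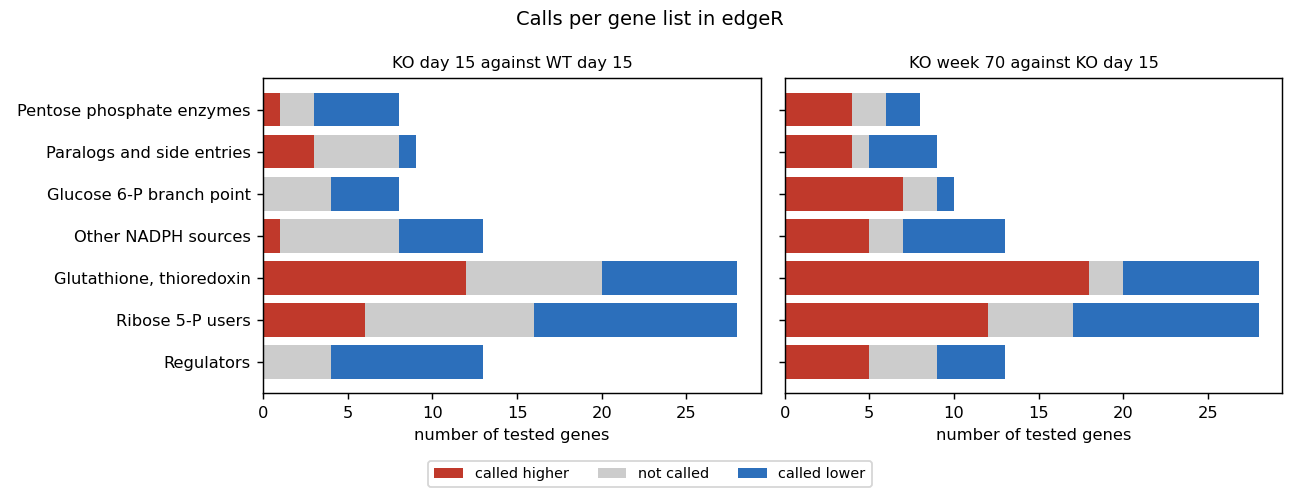
Number of tested genes (x axis) called higher, not called and called lower in edgeR for the pentose phosphate enzymes and 6 related lists (y axis), by genotype at day 15 and by age within KO. The regulators and the branch point genes have no gene called higher at day 15, and 9 and 4 called lower. Of all tested genes 30.1% were called higher and 32.5% lower at day 15. With length and GC corrected, 2 genes were called higher in each of these lists, and 8 and 2 lower.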

How the data were processed

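Whole brains were sequenced in 8 libraries of 3 groups taken from the titles. The authors deposited raw read counts per Ensembl gene, not normalised. The submitters' processing notes name FastQC, cutadapt, Trimmomatic, HISAT2, featureCounts and edgeR and the builds GRCm38 and GRCm39, with no versions or roles; strand use and multi-mapping reads are not given in the sources used here.

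The whole table was fitted for each pair of groups with edgeR 4.0.16 in R 4.3.3: filterByExpr, TMM, the two-sided quasi-likelihood F-test, Benjamini-Hochberg adjustment over all genes tested and a threshold of 0.05. SE is the value implied by the F statistic. CPM used 1 TMM scaling over all 8 libraries, so ratios of CPM differ slightly from fitted fold changes. A count of 3 is 0.14 to 0.207 CPM; this floor covers counting error only. Length and GC came from GENCODE M 21 on GRCm38, which matched 97.3% of identifiers; the correction enters smooths of each library's deviation on both (mgcv 1.9.3) as an offset. Pseudogenes were aligned with minimap2 2.31 (at least 50% aligned, 85% identity). Alternatives were RLE and upper-quartile scaling, other filters, DESeq2 1.42.0, all 8 libraries in one fit, removal of haemoglobin and mitochondrial genes, the correction, the replicate block, and each library left out. The members and lists were chosen with earlier results of these data known. All members are described; of each list the rule names the 2 smallest adjusted p in each direction, and per member the 3 nearest genes with a mean of at least 10 CPM. Other genes named were chosen after their values were seen. A gene that the rule would name among the branch point genes is not reported here. Scripts were tested on simulated counts in which 200 genes were changed by 1 on the log2 scale. The main edgeR fit recovered 71%, 63% and 53% of these in the 3 comparisons, in the order above. Of its calls 11.8%, 13.7% and 10.9% were false, more than the threshold of 0.05 aims at. False calls made up 12.5% to 26.2% with DESeq2 and 17.2% to 32.1% with the replicate block. The 200 changed genes were among 18786 to 19118 tested in edgeR, and no length or GC trend was simulated. In the real data 62.6% to 82% of genes were called. The false share depends on how many genes change, so these rates do not carry over to the real fits.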

Additional observations from a re-analysis of the deposited data

How the results depend on the processing

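Of 368 recomputed fold changes of the members, 335 kept their direction and their side of the threshold, 15 passed in the alternative alone, 4 no longer passed and 14 had the other sign. Tkt, G6pdx, Pgd and H6pd at day 15, and Tkt, G6pdx, H6pd, Taldo1, Pgls and Rpia by age, kept direction and call in every alternative run. Upper-quartile scaling gave 2 members higher at day 15 and 3 lower by age, and log2 fold changes of 0.011 for Taldo1 and 0.067 for Rpia at day 15 and -0.20 for Rpe by age. For Pgls at day 15 the value was 0.18 and past the threshold with upper-quartile scaling, -0.078 with no filter, -0.0414 in DESeq2 and -0.027 with all 8 libraries in one fit, and -0.027 to 0.055 when each library was left out. Rpe at day 15 was -0.0056 with length and GC corrected and -0.00485 with the replicate block as well. Against WT day 15, week 70 Tkt was -0.034 corrected and -0.045 with correction and block, and the number of members higher was 3 with RLE scaling, 4 with all 8 libraries in one fit, and 2 to 3 with each library left out (3 without WT replicate 1 or week 70 replicate 1). Pgd by age was -0.208 to 0.00444 with each library left out, above 0 without week 70 replicate 1. The cause was not tested.

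The labels number the replicates alike in each group. Same-numbered fetal libraries had correlations of -0.144, -0.169 and -0.146 between their deviations from the group means, so the numbers do not pair them. With the replicate block 5, 6 and 5 members were called in the 3 comparisons (6, 6 and 5 without it), and with block and correction 3 members were lower by age. Of 88 recomputed group shares per kb, 21 moved by at least 1 SD. All 21 came from using merged exon length, an alternative chosen after seeing the data. Leaving out a library cannot move the mean of a group of 2 or 3 by 1 SD. Those values therefore say nothing on how stable the shares are. Of 552 counts recomputed for the other lists, 40 moved by 1.5 times or more.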
